A study of Homo sapiens with 4 samples.

Results

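Interferon response genes were examined in MIA PaCa-2 cells, an established line of human pancreatic ductal adenocarcinoma (PDAC), after treatment with neobractatin (NBT, a plant compound), the MEK inhibitor trametinib or their combination. The 9 genes were taken by symbol from the 16834 genes of the expression table, and all 9 were found and had reads in every library. They are STAT2, IRF1 and IRF9, which encode transcription factors, and IFIT1, IFIT2, IFIT3, ISG15, IFI6 and OAS1, which encode antiviral effectors.

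Cells of 4 conditions were compared, each as 1 library: control cells, cells given 1 µM NBT, cells given 5 µM trametinib, and cells given both drugs at these doses, with 12 h of treatment. No condition was replicated, so the variation between cultures was not measured, and each value below describes a library. The sums of estimated reads ranged from 18776254 to 19614826, and a limit of 3 reads corresponded to between 0.153 and 0.160 CPM (counts scaled to library size). Levels are given as estimated reads and as TPM, which is scaled to gene length and library, and changes as log2 fold changes of scaled read counts.

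In cells that meet type I interferon, receptor-bound kinases phosphorylate STAT proteins. STAT2 and IRF9 are parts of the complex ISGF3, which binds the interferon-stimulated response element (ISRE) and switches on genes such as IFIT1, ISG15 and OAS1. IRF1 is induced mainly through another sequence, the GAS element bound by STAT dimers, and some of these genes are also switched on by IRF proteins without interferon. The proteins restrict viral RNA: IFIT proteins bind it, OAS1 senses double-stranded RNA and makes an oligoadenylate signal, and ISG15 is a ubiquitin-like protein that is joined to other proteins.

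The libraries were first checked against their labels. All 10 genes taken as output of the MAPK pathway, which trametinib blocks, passed the limits defined below as lower with trametinib (median log2 fold change -3.27) and with the combination (-2.77). Of the genes that mark the cell line's origin, KRT8 had between 1493 and 3799 TPM and KRT18 between 995 and 3142 TPM. KRT19, a further epithelial gene of this list, had no entry among the genes analysed, so its level is not known. EPCAM had between 209 and 242 TPM and CDH1, which encodes E-cadherin, between 51.2 and 86.9 TPM. VIM, the vimentin gene, had between 11.5 and 26.4 TPM. MIA PaCa-2 is usually described as rich in vimentin and poor in E-cadherin, and the levels of CDH1 and VIM go against that description. The line was taken from the sample titles, since the labels' cell line entries carry a different number for each library.

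A further feature separates the libraries treated with trametinib from the others. Of 20 genes typical of T lymphocytes, chosen after the values had been seen, 14 had 0 reads in the control and NBT libraries, which allows up to 0.160 CPM for each. All 14 had reads with trametinib (252 reads in all, 15.2 TPM) and with the combination (210 reads, 12.5 TPM). CD3E, a subunit of the T cell receptor complex, had 55 and 29 reads there, and CD7 had 44 and 55. The other 6 genes had reads in every library, and not all were higher with trametinib. TCF7, the most abundant of the 20, had 395 reads in control cells, 399 under NBT, 188 under trametinib and 224 under the combination, LCK had 46, 33, 55 and 25, and CD28 had 5, 4, 2 and 4. PTPRC, which encodes the leukocyte antigen CD45, had 8 reads in control cells, 14 under NBT, 17 under trametinib and 15 under the combination. Over all 20 genes, TCF7 included, the summed level was 16.7 TPM in control cells, 15.2 TPM under NBT, 25.8 TPM under trametinib and 22.2 TPM under the combination. Summed levels of fibroblast markers (0.510 to 1.90 TPM) and endothelial markers (0.290 to 0.800 TPM) were also highest with trametinib. Lymphoid cells express many interferon response genes. The part of these markers in the results below was not tested, and both libraries treated with trametinib carry them, so no comparison with trametinib can be made without them.

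The promoters of the genes were searched for elements known from interferon control. RefSeq promoters (GRCh38.p14) of 250 bases before to 50 bases after the start were at hand for 8 of the 9 genes, all but IFIT2. Both strands were read for the core of the ISRE, GAAANNGAAA, which reads TTTCNNTTTC on the opposite strand. The core was found in 4 of the 8 promoters, in 21 of 37 promoters of other antiviral effectors and in 3.57% of all 35116 promoters. The stretches around the cores are printed 5′ to 3′ on the strand of the gene, with the matches in capitals, because these 4 effector genes share the core. They lie at chr10:89392487-89392549 for IFIT1 (plus strand), chr10:89327821-89327904 for IFIT3 (plus strand), chr1:1013364-1013419 for ISG15 (plus strand) and chr1:27672256-27672368 for IFI6 (minus strand).
IFIT1: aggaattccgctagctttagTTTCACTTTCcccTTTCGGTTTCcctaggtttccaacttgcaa
IFIT3: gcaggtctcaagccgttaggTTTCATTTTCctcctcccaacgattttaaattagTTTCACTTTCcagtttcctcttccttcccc
ISG15: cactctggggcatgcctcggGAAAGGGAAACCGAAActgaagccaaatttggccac
IFI6: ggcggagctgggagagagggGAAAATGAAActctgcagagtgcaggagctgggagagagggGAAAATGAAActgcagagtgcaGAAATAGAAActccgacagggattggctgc

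IFIT1, IFIT3 and ISG15 each held 2 cores and IFI6 held 3, and the 2 of ISG15 overlap in a single run. The first core began 116 bases before the start of IFIT1, 156 before that of IFIT3, 113 before that of ISG15 and 156 before that of IFI6.

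The other 3 genes with a match held the GAS letters, TTCNNNGAA, which read the same on both strands and occur in 7.66% of all promoters. No promoter of the 8 genes held both motifs, and that of STAT2 held neither in this window. Only exact letters were matched, and other spacings of the GAAA words were not searched. Genes without the core, OAS1 among them, may therefore still hold an ISRE of another form. The stretches lie at chr5:132490869-132490917 for IRF1 (minus strand), chr14:24161182-24161230 for IRF9 (plus strand) and chr12:112906774-112906822 for OAS1 (plus strand). Again the matches are in capitals.
IRF1: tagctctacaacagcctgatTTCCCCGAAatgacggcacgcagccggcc
IRF9: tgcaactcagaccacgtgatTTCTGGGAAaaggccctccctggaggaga
OAS1: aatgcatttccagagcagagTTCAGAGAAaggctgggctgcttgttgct

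The transcription factor genes were the better expressed ones, together with ISG15. STAT2 (NCBI Gene 6773) had 1220 reads in control cells, 1732 under NBT, 1878 under trametinib and 2172 under the combination. It was lowest in the control and highest with the combination, and each step of this order was larger than counting error. On the TPM scale STAT2 went from 29.28 to 48.71.

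IRF9 (NCBI Gene 10379), which gives ISGF3 its DNA contact, had 170 reads in control cells, 228 under NBT, 514 under trametinib and 352 under the combination. Trametinib alone gave the highest level, and every neighbouring pair in the order differed by more than counting error. The TPM values of IRF9 were 11.18, 13.83, 32.90 and 21.57 in the same order of libraries.

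IRF1 (NCBI Gene 3659), an activator that needs no ISGF3 to bind its targets, had 556 reads in control cells, 440 under NBT, 874 under trametinib and 576 under the combination. The combination and the control could not be told apart, with a log2 fold change of -0.01 (95% counting interval from -0.18 to 0.16), whereas NBT alone was lower and trametinib alone higher than both.

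Among the effectors ISG15 (NCBI Gene 9636) stood far above the others. It had 215 reads in control cells, 193 under NBT, 423 under trametinib and 341 under the combination, or 37.91, 31.40, 72.61 and 56.04 TPM. NBT and control did not differ beyond counting error, and the trametinib library was the highest.

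The remaining effectors were expressed at a low level, with at most 3.31 TPM and between 5 and 92 reads in any library. IFIT1 (NCBI Gene 3434) had 47, 35, 92 and 64 reads in the control, NBT, trametinib and combination libraries. Its trametinib level was above the combination, and the other neighbours in its order overlapped within counting error.

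IFIT2 (NCBI Gene 3433) had 17, 22, 34 and 85 reads in these libraries. It was the member with the clearest excess in the combination library. IFIT3 (NCBI Gene 3437) had 43, 31, 46 and 68 reads, also highest with the combination, but no neighbouring pair in its order differed by more than counting error.

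IFI6 (NCBI Gene 2537), which encodes a small membrane protein induced by interferon, had 9, 5, 25 and 16 reads. OAS1 (NCBI Gene 4938) had 27, 18, 50 and 21 reads. Both were highest with trametinib alone, and for IFI6 no neighbouring levels could be separated at this depth.

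Trametinib alone was thus the highest library for 6 of the 9 genes and the combination for the other 3, STAT2, IFIT2 and IFIT3. NBT alone was the lowest library for 6 genes and the control for 3. The plot of levels by library shows the 2 tiers of expression and this order.

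**Figure D1:**
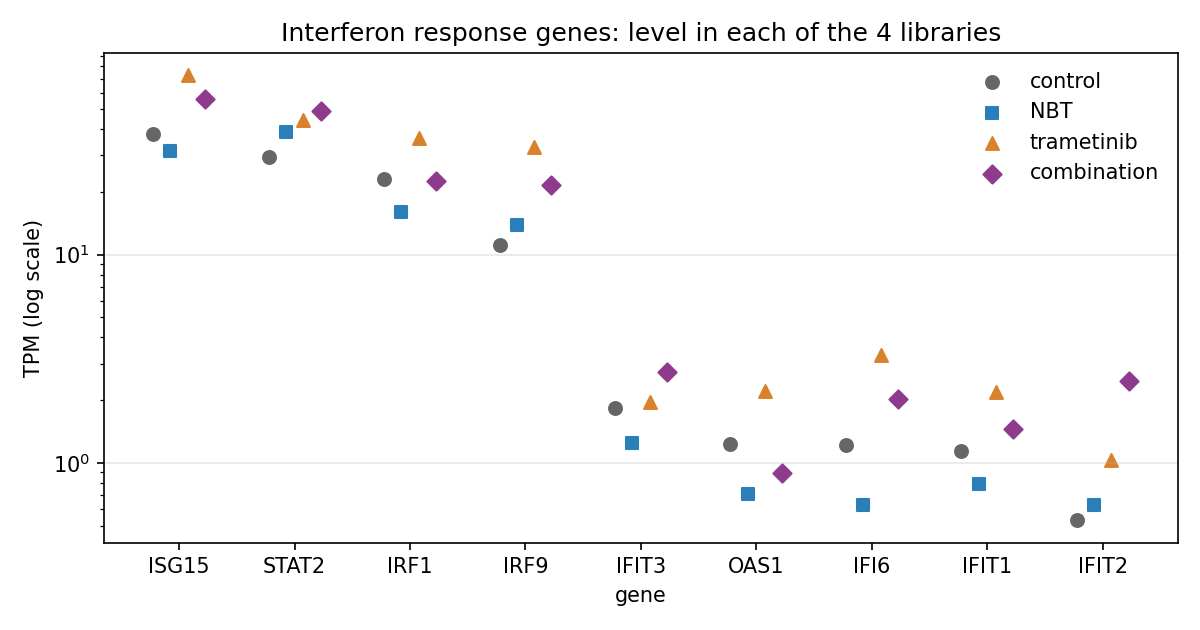
TPM (log scale) of the 9 interferon response genes, sorted by their control level, with 1 point per library. STAT2, IRF1, IRF9 and ISG15 lie above 11 TPM in every library and the other 5 genes below 3.4 TPM, and the trametinib point is the highest for 6 genes.

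To ask what MEK inhibition alone did, the trametinib library was compared with the control. A gene was called when its log2 fold change was at least 1 in either direction and it passed an exact binomial test of the 2 libraries' reads after adjustment over all genes. IRF9 and IFI6 rose past these limits, so 2 of the 9 genes were called higher and 0 lower, where 3.82% and 2.15% of all 16197 genes tested were called higher and lower. IRF9 rose with a log2 fold change of 1.58 (interval from 1.33 to 1.84) and IFI6 with 1.41 (from 0.31 to 2.74). The call of IFI6 rests on 9 and 25 reads.

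The counting interval lay above 0 for 8 of the 9 genes and below 0 for 0, against 28.3% and 19.3% of all genes tested. The 9 genes had a median log2 fold change of 0.95, beside 0.08 for all genes. Values just under the limit of 1 were those of IFIT2 (0.97), ISG15 (0.96, from 0.72 to 1.21), IFIT1 (0.95, from 0.43 to 1.49) and OAS1 (0.86, from 0.17 to 1.61). The changes of IRF1 (0.64) and STAT2 (0.61) were smaller and better measured, because these genes had more reads. IFIT3 had 0.08 (from -0.55 to 0.72), so it was the 1 member whose level with trametinib could not be separated from the control. With a log2 limit of 0.5 in place of 1, 7 of the 9 genes were called, all higher, where 9.41% of all genes tested were called higher and 5.67% lower. Only IRF9 was called once cultures were taken to vary by a coefficient of 0.2, which left 1.25% of all genes called higher and 1.00% lower.

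NBT alone gave no call among the 9 genes, with 0 higher and 0 lower, where 1.60% and 1.01% of 15888 genes tested were called higher and lower. The interval lay above 0 for 2 genes and below 0 for 1, against 19.6% and 21.6% of all genes, shares close to the background. The median of the 9 genes was -0.39, beside -0.01 for all genes. STAT2 had a log2 fold change of 0.46 (from 0.35 to 0.56) and IRF9 of 0.37 (from 0.08 to 0.67). IRF1 had -0.39 (from -0.57 to -0.20). The 6 effectors had values between -0.84 (IFI6) and 0.31 (IFIT2), each with an interval that includes 0. In this comparison the 14 T lymphocyte genes were at 0 in both libraries.

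With the combination, only IFIT2 was called among the 9 genes, so 1 was higher and 0 lower, against 4.73% and 3.69% of 16229 genes tested. IFIT2 rose with a log2 fold change of 2.23 (from 1.50 to 3.10), a ratio of 4.68. IRF9 lay just outside the limit with 0.98 (from 0.72 to 1.26). The intervals of 5 genes lay above 0 and of 0 below 0, against 27.9% and 25.2% of all genes. STAT2 had 0.77, ISG15 0.60 and IFIT3 0.59, while IFIT1 (0.38), IFI6 (0.73), IRF1 (-0.01) and OAS1 (-0.42) had intervals that include 0. The median of the 9 genes was 0.60, beside 0.05 for all genes.

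**Figure D2:**
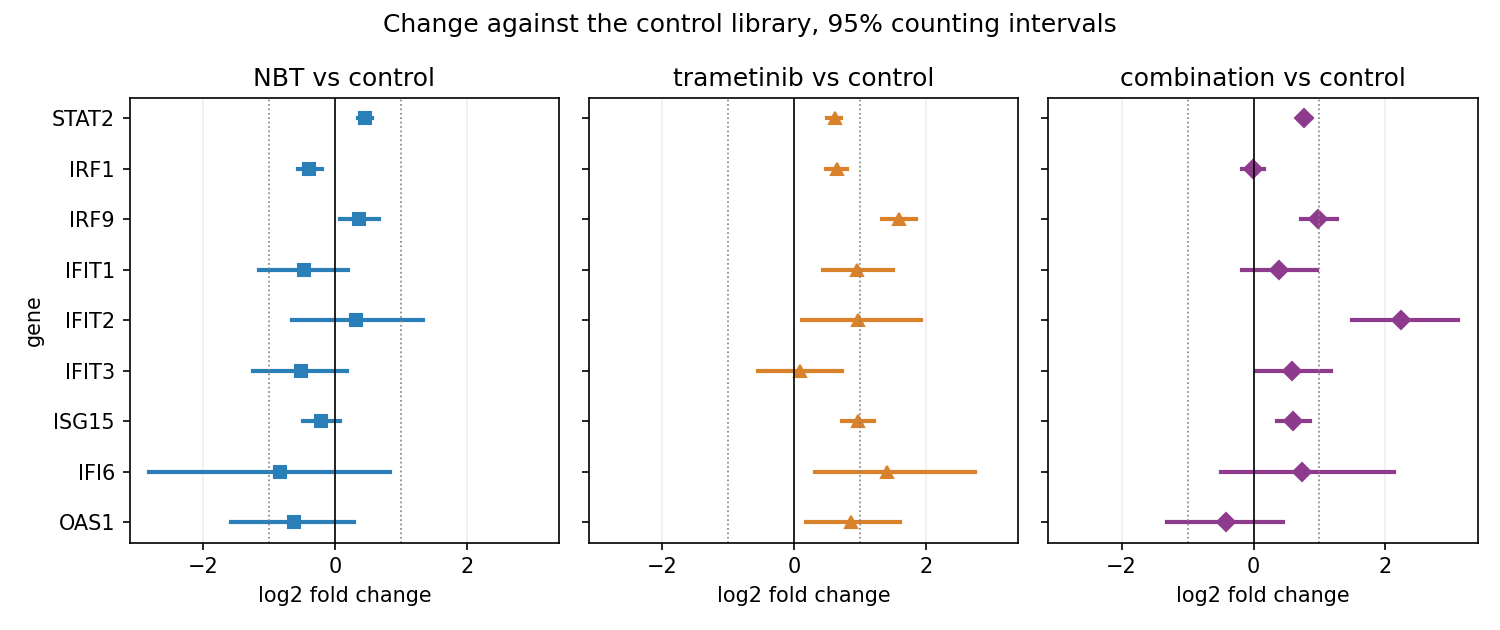
Log2 fold change of each gene against the control library (horizontal axis) for NBT, trametinib and the combination, with 95% counting intervals as lines and dotted lines at the limits of -1 and 1. With trametinib 8 of 9 intervals lie above 0, with NBT 2, and with the combination 5, with IFIT2 at 2.23.

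The study paired the drugs, so the effect of NBT was also read in cells that received trametinib. Between the combination and trametinib libraries, IFIT2 rose with a log2 fold change of 1.26 (from 0.68 to 1.89) and OAS1 fell with -1.28 (from -2.11 to -0.54). Thus 1 gene was called higher and 1 lower, where 2.56% and 3.55% of 16343 genes tested were, and the call of OAS1 rests on 50 and 21 reads. Neither was called once cultures were taken to vary by a coefficient of 0.2, which left 1.85% of all genes called.

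The intervals of 5 genes lay below 0 in this comparison, those of IRF1, IRF9, IFIT1, ISG15 and OAS1, against 26.9% of all genes. IRF1 had a log2 fold change of -0.65 (from -0.81 to -0.50), IRF9 of -0.60 (from -0.80 to -0.40), IFIT1 of -0.57 (from -1.06 to -0.10) and ISG15 of -0.36 (from -0.57 to -0.15). Those of 2 genes, IFIT2 and STAT2, lay above 0, against 22.6% of all genes. STAT2 had 0.16 (from 0.07 to 0.25), and IFIT3 had 0.51 with an interval from -0.05 to 1.09. The median of the 9 genes was -0.57, and that of all genes was -0.05. The reads of the 14 T lymphocyte genes summed to a log2 fold change of -0.31 (from -0.58 to -0.04) in the same comparison, and their part was not tested.

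Trametinib given on top of NBT, read from the combination against the NBT library, left 8 of the 9 intervals above 0 and 0 below, against 23.4% and 19.3% of all genes. IFIT2 (1.91, from 1.25 to 2.68) and IFIT3 (1.11, from 0.49 to 1.78) rose, so 2 were called higher and 0 lower, where 2.38% and 1.99% of 16250 genes tested were. IFI6 had a value of 1.57, between those of IFIT2 and IFIT3, but its interval from 0.15 to 3.47 reflects 5 and 16 reads, and it was not called. ISG15 had 0.81, IFIT1 0.85, IRF9 0.61, IRF1 0.38 and STAT2 0.31. OAS1, with 0.20 and an interval that includes 0, was the exception. The median of the 9 genes was 0.81, beside 0.03 for all genes. This comparison shares the combination library with the one above, and the comparisons with the control share that library.

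**Figure D3:**
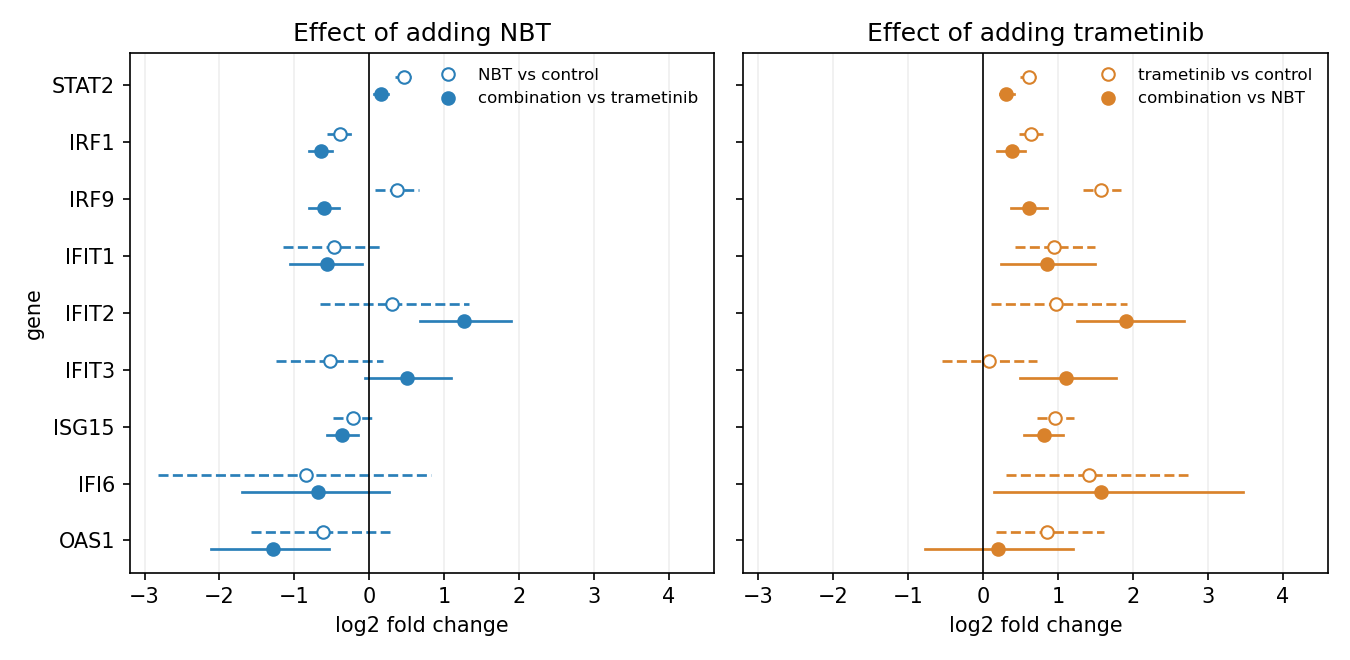
Log2 fold changes (horizontal axis) with 95% counting intervals for adding NBT (left) and adding trametinib (right), without the other drug (open points, dashed lines) and with it (filled points, solid lines). Adding NBT gave values on opposite sides of 0 for IRF9 and IFIT3, and adding trametinib gave values above 0 for all 9 genes in both settings.

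To compare the combination with the single drugs, the log2 fold changes of NBT and trametinib were added and set against that of the combination. For IRF9 the sum was 1.95 and the combination reached 0.98, a departure of -0.97 (95% counting interval from -1.31 to -0.62). STAT2 and IRF1 also fell short of their sums, by -0.30 (from -0.43 to -0.16) and -0.26 (from -0.50 to -0.03). IFIT3 went the other way, with a sum of -0.43 against 0.59 and a departure of 1.02 (from 0.17 to 1.88). IFIT2 had a departure of 0.95, but its interval from -0.12 to 2.01 includes 0, as do those of IFIT1, ISG15, IFI6 and OAS1. The median departure was -0.15 for the 9 genes and -0.03 for 11367 genes with at least 50 reads in a library.

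IFIT1, IFIT2 and IFIT3 lie near each other on chromosome 10, where IFIT2 lies at 89302046 to 89309271, IFIT3 at 89327997 to 89340968 and IFIT1 at 89392623 to 89406487 (GRCh38.p14). They did not share an order of libraries. IFIT1 was highest with trametinib and had 64 reads with the combination against 92, while IFIT2 and IFIT3 were highest with the combination. The estimated reads of IFIT1, IFIT3, STAT2, IRF1 and OAS1 were not whole numbers (within 0.005) in every library, as arises when reads are divided among genes. Those of IFIT2, IRF9, ISG15 and IFI6 were whole.

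At the level of RefSeq transcripts, IRF9, IFIT1, IFIT2, ISG15 and IFI6 had 1 listed transcript each. STAT2 had 7 with reads, and its transcript NM_005419.4 took 38.5% of the gene's reads in control cells, 56.5% under NBT, 24.3% under trametinib and 44.3% under the combination. The estimate for NM_198332.2 was 247.12 reads in control cells, 0 under NBT, 496.36 under trametinib and 248.38 under the combination. The overlap of these transcripts makes such shares uncertain, and no replicate exists to judge them by. OAS1 was carried mainly by NM_001320151.2, at 87.3% of its control reads and 62.4% of its combination reads, and IRF1 was spread over 4 transcripts.

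The rest of the pathway was described with lists of other genes. Of 12 genes for interferons and their receptors 7 were analysed here, and 0 of them were called against the control in any treated library. The interferon genes IFNB1, IFNK, IFNL1, IFNL2 and IFNL3 had no entry among the genes analysed, so their levels are not known. Over all genes tested, the share called in 1 direction against the control ranged from 1.01% to 4.73%. The receptor genes IFNAR1 and IFNAR2, which pair to bind type I interferon, had 1139 and 242 reads in the control. IFNAR1 had 1171 reads with trametinib and IFNAR2 407. The only interferon gene among the 7, IFNE, had 10, 23, 4 and 16 reads in the control, NBT, trametinib and combination libraries, and it was called higher with the combination than with trametinib. These genes are named for their place in the pathway and after their values had been seen.

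Of 9 receptor kinases and negative regulators, SOCS3, an inhibitor of JAK signaling, fell with trametinib from 383 to 190 reads (log2 fold change -1.02). It had 438 reads with the combination and was called higher there than with trametinib (1.15). No other gene of this list was called. Of all genes tested, 2.15% were called lower with trametinib and 2.56% higher in the combination against trametinib. With trametinib 0 of 11 sensors and adaptors were called higher and 1 lower, against 3.82% and 2.15% of all genes tested. With the combination 0 were called higher and 1 lower, against 4.73% and 3.69%. The gene called lower was STING1, the adaptor that signals cytosolic DNA. It fell from 189 reads in the control to 38 under trametinib (-2.31) and 72 under the combination (-1.45), and NBT cells had 305. Of 8 further transcription factors of the pathway, 1 was called higher and 1 lower with trametinib, and 1 higher and 0 lower with the combination. The shares of all genes are those just given. IRF5 rose from 113 to 261 reads with trametinib (1.19) and to 250 with the combination (1.08), and IRF2BP2 fell with trametinib from 2072 to 1028 reads (-1.02).

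The list of 46 other antiviral effectors was read in the same way as the 6 above. With trametinib 10 were called higher and 0 lower, against 3.82% and 2.15% of all genes tested. The median log2 fold change was 0.50 over all 46 and 0.42 over the 38 with at least 10 reads in a library, beside 0.08 for all genes. With the combination 6 were called higher and 1 lower (medians 0.52 and 0.36), against 4.73% and 3.69% of all genes tested. With NBT 3 were called higher and 0 lower (median 0.05 over the 39 with reads), against 1.60% and 1.01%. PARP9 and DTX3L, which encode partners in a complex of the interferon response, rose with trametinib from 253 to 656 reads (1.36) and from 383 to 871 (1.17). With the combination DTX3L kept its level at 901 reads, whereas PARP9 had 332 and was called lower than with trametinib (-1.03). PARP14 (125 to 289 reads, 1.19) and TDRD7 (71 to 196 reads, 1.45) also rose with trametinib and passed the limits with the combination.

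Other members of this list were called in other libraries. IFI16, a sensor of DNA, rose with NBT from 1164 to 2837 reads (1.23) and with the combination to 4663 (1.94), and trametinib alone gave 2230 reads (0.92, from 0.82 to 1.03), just under the limit. OAS3, the most strongly expressed OAS gene here, had 1913 reads in the control, 1471 with NBT and 1707 with trametinib, and fell to 843 with the combination (-1.24). PARP10 had 152, 87, 216 and 104 reads in the control, NBT, trametinib and combination libraries and was called lower with the combination than with trametinib (-1.10).

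Of the 46 effectors, 7 had 0 reads in the control and NBT libraries and reads in both libraries treated with trametinib, a pattern noticed after the values had been seen. They were BST2, CMPK2, EPSTI1, IFI27, IFI44L, SAMD9L and TRIM22, with between 3 and 10 reads with trametinib and between 2 and 4 with the combination. Against the limit of 3 reads, BST2 and TRIM22 were at least 3.30-fold higher with trametinib. The same pattern was found in 310 of 16800 genes with a read (1.85%). Of the 10 effectors with at most 10 reads in every library 7 had it, against 8.22% of 3419 genes in that range. The pattern was taken from these same effectors, and the 7 entered that range only through their reads with trametinib. The contrast therefore describes them and is not a test. The opposite pattern, reads without trametinib and 0 with it, was found in 0 of the 46 effectors, in 0.530% of all genes and in 2.54% of those with at most 10 reads. The 14 T lymphocyte genes follow the pattern of these 7 effectors, and their part in it was not tested.

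Of 9 targets of interferon gamma analysed here, 2 were called higher and 1 lower with trametinib, against 3.82% and 2.15% of all genes tested. With NBT 1 was called higher and 0 lower, against 1.60% and 1.01%. With the combination 1 was called higher and 2 lower, against 4.73% and 3.69%. The calls with trametinib that were higher, GBP1 (0, 4, 8 and 3 reads in the control, NBT, trametinib and combination libraries) and GBP2 (0, 1, 8 and 5 reads), rest on few reads. IDO1, which encodes a tryptophan-degrading enzyme, had 43, 24, 27 and 10 reads and fell with the combination (-2.11). These 3 genes were named after their values had been seen. CD274, which encodes PD-L1, fell with trametinib from 1313 to 334 reads (-1.99) and with the combination to 405 (-1.76). WARS1, a tRNA synthetase gene that interferon gamma induces, rose with NBT from 3036 to 6552 reads (1.06) and with the combination to 8141 (1.36). WARS1 is also raised in the amino acid response, and what raised it here was not tested. CXCL10, a chemokine gene that cells responding to interferon commonly switch on, had 0, 0, 0 and 1 reads and is named after its values had been seen.

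For comparison, 15 genes of MHC class I antigen presentation had a median log2 fold change of 0.51 with trametinib, -0.22 under NBT and 0.00 under the combination, where the 9 interferon response genes had 0.95, -0.39 and 0.60. Between the combination and trametinib libraries 5 of the 15 were called lower and 0 higher, against 3.55% and 2.56% of all genes tested. Among the 5 were TAPBP (956, 613, 1725 and 869 reads in the control, NBT, trametinib and combination libraries) and PSMB8 (96, 81, 199 and 97 reads). Of 14 targets of NF-kB analysed here, 0 were called higher and 1 lower with trametinib, against 3.82% and 2.15% of all genes tested. With NBT 1 was called higher, CXCL2 (23 to 96 reads), and 1 lower, IL6 (130 to 50 reads), against 1.60% and 1.01%. With the combination 2 were called higher, CXCL2 (23 to 594 reads) and TRAF1 (44 to 332 reads), and 0 lower, against 4.73% and 3.69%. With 1 library per condition, whether the lists differ could not be tested.

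**Figure D4:**
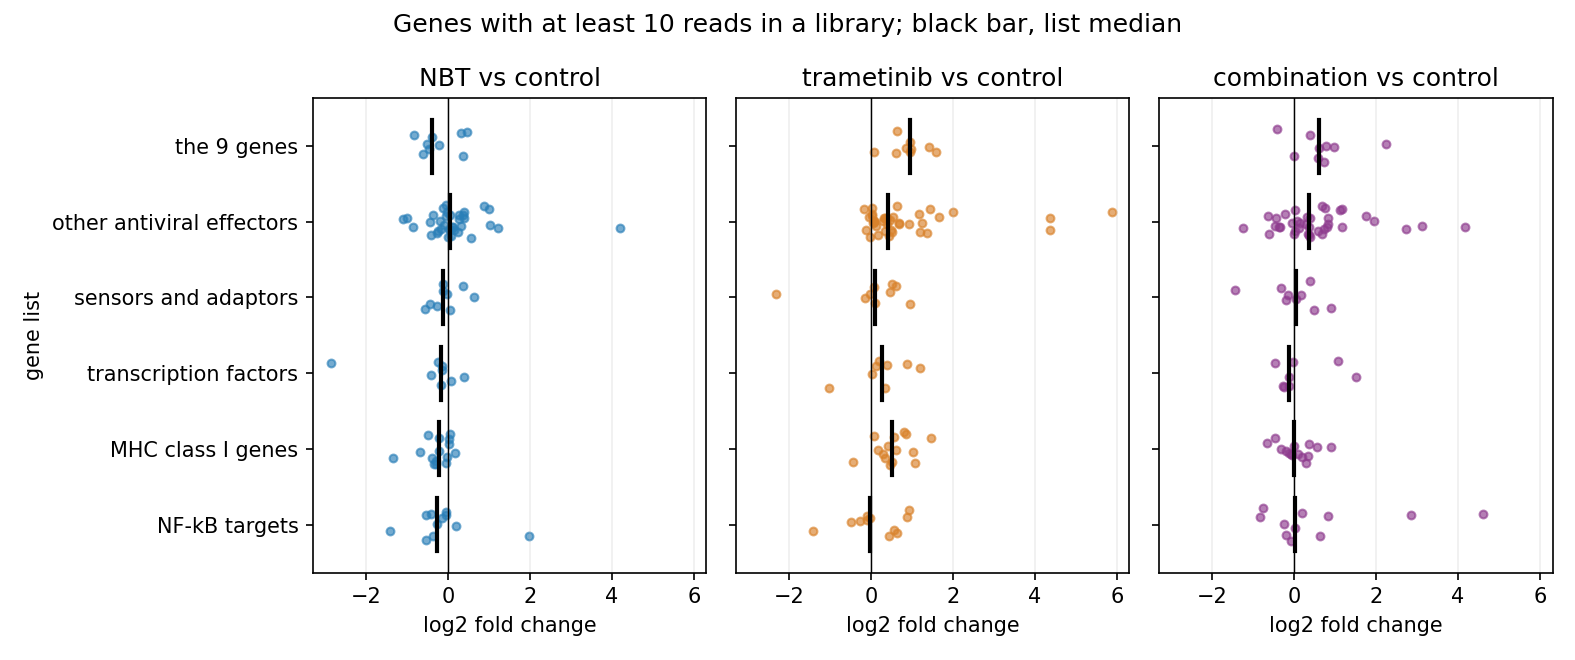
Log2 fold changes (horizontal axis) against the control library for genes with at least 10 reads in a library, by list, with the list median as a black bar. With trametinib the medians are 0.95 for the 9 genes, 0.42 for the other antiviral effectors and 0.51 for the MHC class I genes, and with the combination they are 0.60, 0.36 and 0.00.

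The genes most like the median of the 9 were sought among 9982 other genes with at least 100 reads in every library, by the Euclidean distance of their 3 log2 fold changes against the control. Their median profile was -0.39 under NBT, 0.95 under trametinib and 0.60 under the combination. Among the 5 nearest were PDLIM1 (-0.41, 1.02 and 0.58, at a distance of 0.0814), RRAS (0.164), LRP1 (0.179) and HDAC11 (0.208). PDLIM1, a cytoskeletal adaptor gene, had 4503, 3518, 9238 and 7012 reads in the control, NBT, trametinib and combination libraries. The order of libraries seen for ISG15, IFIT1 and IFI6, and not for the other members, occurs also in these genes outside the interferon lists. They were picked for nearness to the median profile, so this order follows from the choice. How many of all genes have it was not counted.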

How the data were processed

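RNA-seq covered 4 libraries of MIA PaCa-2 cells, 1 per condition. The submitters' processing notes name Bowtie2 2.2.5, RSEM 1.2.8 and hg38 without giving their roles. The authors deposited estimated counts, TPM values (scaled to length and library) and FPKM values per gene and per transcript. FPKM values were not used. Estimated counts were rounded and scaled to library sums (18776254 to 19614826), and 0.5 reads were added for log2 ratios.

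Following the limits in the study's methods, a gene was called at an absolute log2 fold change of at least 1 and a Benjamini-Hochberg adjusted value of at most 0.05 in an exact two-sided binomial test of 2 libraries' counts (2 times the smaller tail). Genes needed 1 count or more across the 2 libraries. Such a test compares libraries and not conditions, so no p-value is given. Counting intervals are 95% Clopper-Pearson intervals. PCR copies of a molecule count as separate reads, so these intervals describe counting error alone. The calling step and the intervals were tried on simulated counts that held counting error alone, with changes set only in better expressed genes. The simulation held no variation between cultures, so it cannot show how the calls fare under such variation. The members and lists were chosen with earlier results of these data known, and the T lymphocyte genes after the values had been seen. Of the lists, the text names genes called in any comparison with at least 100 reads in the higher library, at most 8 per list, and says where others are named. A few genes that these rules select are not reported here. Promoters and positions are those of RefSeq (GRCh38.p14). The alternatives were TMM (edgeR 4.0.16) and median-of-ratios factors (DESeq2 1.42.0), TPM values with 0.1 added, 5 added reads, summed transcript counts, at least 10 counts, a log2 limit of 0.5, a negative binomial test in edgeR that assumes culture variation with a coefficient of 0.2 and, chosen after seeing the data, another two-sided form of the binomial test. R 4.3.3, Python 3.11.15, scipy 1.17.1, pandas 2.3.3 and numpy 2.4.6 were used.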

Additional observations from a re-analysis of the deposited data

Results flagged for a closer look

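IRF9 was flagged because adding NBT had opposite directions without and with trametinib. Against the control, NBT gave IRF9 a log2 fold change of 0.37 (95% counting interval from 0.08 to 0.67), and against trametinib the combination gave -0.60 (from -0.80 to -0.40). The second value lies -0.97 from the first. Each condition has 1 library, so the difference was not tested beyond counting error. The reads behind it are 170 in control cells, 228 under NBT, 514 under trametinib and 352 under the combination. Of the 9 genes, IRF9 was the only one whose intervals lay on opposite sides of 0 in these 2 comparisons, and none did so for adding trametinib. How many of all genes do so was not counted. Of all genes tested, 19.6% had an interval above 0 with NBT and 26.9% had one below 0 in the combination against trametinib. Whether IRF9 is unusual in this was therefore not tested.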

How the results depend on the processing

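Scaling by TMM or median-of-ratios factors, TPM values, 5 added reads, summed transcript counts and a limit of 10 counts left the members' medians within -0.48 to -0.30 (NBT), 0.81 to 0.95 (trametinib), 0.54 to 0.60 (combination), -0.57 to -0.52 (combination against trametinib) and 0.77 to 0.81 (combination against NBT). They called the same genes as the main setting. All 225 recomputed single fold changes stayed within their counting intervals. With a log2 limit of 0.5, 7 members were called with trametinib (15.1% of all genes), 4 with the combination (22.7%), 5 in the combination against trametinib (18.3%) and 5 against NBT (11.6%), as the limit's construction gives. With an assumed coefficient of variation of 0.2, 1 was called with trametinib (IRF9, 2.25% of all genes), 0 in the combination against trametinib (1.85%) and 1 against NBT (IFIT2, 1.26%), since the test then allows for culture variation. The calls of IFI6, OAS1 and IFIT3, and that of IFIT2 against trametinib, were thus made only by a test that allows for counting error and not for culture variation. No paired analysis was possible because each condition has 1 library. Depth limits the intervals of IFI6, with at most 25 reads, and of OAS1, with at most 50.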
